A study of Rattus norvegicus with 9 samples.

Results

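The receptors for neurotrophic factors were examined in ipsilateral L4–6 dorsal root ganglia (DRGs), the ganglia where the sensory neurons of the hind limb have their cell bodies. The 8 genes were chosen by their symbols, with earlier results of these data known, and all 8 were found among the 20413 genes of the expression table: Ntrk2 (NCBI gene identifier 25054), Ntrk3 (29613), Ngfr (24596), Sort1 (83576), Ret (24716), Gfra1 (25454), Gfra2 (25136) and Gfra3 (84422). RNA-Seq had been carried out on 9 libraries from male Sprague Dawley rats aged 8 to 10 weeks, 3 libraries per group, all collected on day 10. Rats with chronic post-ischemia pain (CPIP), a model of complex regional pain syndrome type I, had one hind paw closed off by a tight ring under anesthesia and then reperfused. The CPIP+EA rats received, in addition, electroacupuncture (EA) at both ST36 and BL60 acupoints, given daily over 10 days. The Sham rats, named Con in the sample labels, were anesthetized and wore an open ring, so that their paws stayed perfused. No group had needles without current, and no Sham rats had EA, so that the effect of EA was measured in CPIP rats and against no stimulation. Each library came from a bulk ganglion sample, in which fewer cells of a type and less RNA per cell cannot be told apart.

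Neurotrophic factors are secreted proteins that keep sensory neurons alive during development and adjust their excitability in the adult. The neurotrophins act through Trk receptor tyrosine kinases, TrkB (Ntrk2) for brain-derived neurotrophic factor and TrkC (Ntrk3) for neurotrophin-3, and through the p75 neurotrophin receptor (Ngfr), which binds all neurotrophins and pairs with sortilin (Sort1) to bind their uncleaved precursors. Factors of the GDNF family act through the tyrosine kinase Ret, which binds no ligand by itself. It is recruited by a co-receptor anchored in the membrane, GFRα1 (Gfra1) for GDNF, GFRα2 (Gfra2) for neurturin and GFRα3 (Gfra3) for artemin. In adult DRGs, Ret marks the nonpeptidergic nociceptors and part of the large neurons, and the co-receptors differ between subsets of sensory neurons.

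All 8 receptor genes were expressed in every library, and all 8 passed the filter on low values. Levels are given as FPKM, the fragments counted per kilobase of transcript relative to all mapped fragments of a library, which is scaled to gene length and so allows levels of different genes to be set side by side. In Sham, Ngfr and Ret were the most abundant at 171 ± 16.0 and 111 ± 11.5 FPKM (SD, n = 3 here and below). Ntrk2 and Gfra1 followed at 49.3 ± 2.02 and 46.0 ± 6.84, and their libraries overlapped. Gfra2, Sort1, Gfra3 and Ntrk3 came next in that order, at 26.4 ± 0.917, 19.3 ± 0.837, 16.4 ± 1.15 and 10.5 ± 1.16, and no library of one gene overlapped those of its neighbour in this order. In CPIP, Gfra1 stood above Ntrk2 without overlap, and Gfra3 stood above Sort1. In CPIP+EA, the libraries of Ret and Gfra1 overlapped, and those of Gfra2 overlapped with both Gfra3 and Sort1, which did not overlap with each other.

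**Figure D1:**
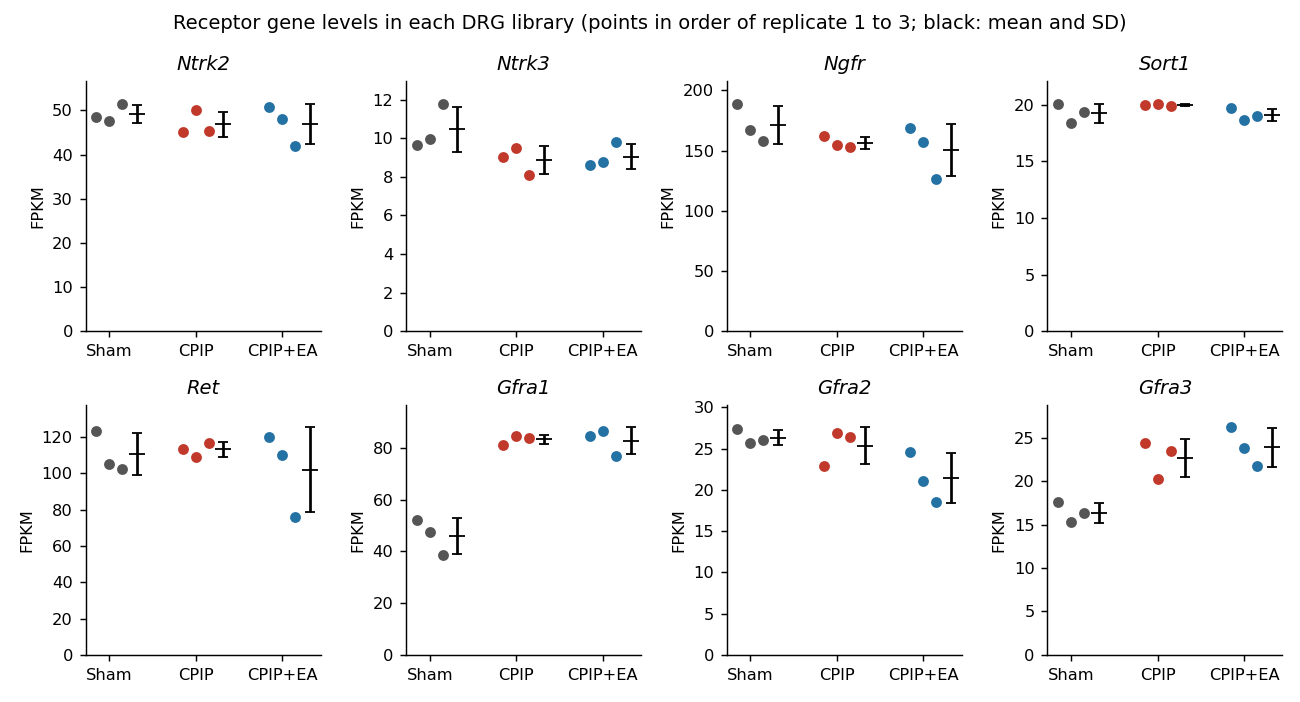
Level of each receptor gene (y axis, FPKM, starting at 0) in the Sham, CPIP and CPIP+EA libraries. Points are single libraries in the order of replicates 1 to 3, and black marks are the mean and SD of the 3 libraries. All 6 CPIP and CPIP+EA libraries lie above the Sham libraries for Gfra1 and Gfra3, whereas the groups overlap for Ntrk2, Ngfr and Ret.

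To find which receptor genes changed in CPIP, log2(FPKM + 0.5) was tested with limma over all 17187 genes whose mean FPKM reached 0.1, and a gene was called at a Benjamini-Hochberg adjusted p under 0.01 with at least a 1.5-fold change, the threshold of the study. Gfra1, the co-receptor for GDNF, was called higher in CPIP than in Sham, and it was the only one of the 8 receptor genes called. Of all genes tested, 0.355% were called in this comparison. Gfra1 was also the only receptor gene called between CPIP+EA and Sham, where 0.483% of all genes were called, and between both CPIP groups as one and Sham, where 0.599% were. These comparisons share the Sham libraries and, in part, the CPIP libraries. With EA, 0 receptor genes were called against CPIP, as were 0 genes (0%) of all those tested with limma. At the same cutoffs, with its own Q-values, the study reported many more genes for CPIP+EA against CPIP and for CPIP against Sham. The counts given here are those of limma on FPKM.

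Gfra1 had 52.11, 47.34 and 38.62 FPKM in the Sham libraries, 81.27, 84.64 and 83.94 in the CPIP group and 84.72, 86.63 and 76.93 in CPIP+EA. Every library of both CPIP groups lay well above the highest Sham library, and the CPIP and CPIP+EA libraries overlapped. The level was 1.81-fold higher in CPIP than in Sham (95% interval 1.55 to 2.13, log2 fold change 0.86, SE 0.10, limma adjusted p of 0.0047). Ranked by p among all genes tested, Gfra1 was number 48 in this comparison. It was 1.80-fold higher in CPIP+EA than in Sham (1.54 to 2.11, limma adjusted p of 0.00416), and 1.81-fold higher in both CPIP groups than in Sham (1.58 to 2.07, limma adjusted p of 0.00132). With EA the level was 0.993 times that in CPIP (0.847 to 1.16, unadjusted limma p of 0.918). The call between CPIP and Sham was lost in 10 of the 22 alternative analyses, those without Sham replicate 2, any 1 of the 3 CPIP libraries or CPIP+EA replicate 1 or 2 among them, although the adjusted p was at most 0.0318 in every one. The call between CPIP+EA and Sham was lost in 8 of the 22, those without Sham replicate 2, CPIP replicate 1 or 2 or CPIP+EA replicate 1 or 2 among them, with an adjusted limma p of at most 0.0267.

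Gfra3, the co-receptor for artemin, had 17.56, 15.27 and 16.28 FPKM in Sham, 24.36, 20.24 and 23.51 in the CPIP group and 26.18, 23.78 and 21.72 in CPIP+EA. As for Gfra1, every library of both CPIP groups lay above all Sham libraries, and CPIP and CPIP+EA overlapped. The level was 1.37-fold higher in CPIP than in Sham (95% interval 1.18 to 1.59, log2 fold change 0.46, SE 0.095), which did not pass the threshold (limma adjusted p of 0.0818). Between CPIP+EA and Sham it was 1.44-fold higher (1.25 to 1.68, limma adjusted p of 0.0318), and over both CPIP groups 1.41-fold higher (1.24 to 1.60, limma adjusted p of 0.0192). Both p-values lie between 0.01 and 0.05, and both changes are under 1.5-fold. Without Sham replicate 2 the adjusted p over both CPIP groups was 0.115 in limma, and 17 of the 21 alternatives left it under 0.05. Between CPIP+EA and Sham 13 of the 22 alternatives did, and the highest adjusted limma p was 0.132, again without Sham replicate 2. At an adjusted p under 0.05 without regard to fold, 1 receptor gene passed between CPIP and Sham (0.710% of all genes), 2 passed between CPIP+EA and Sham (1.31% of all genes) and 2 passed between both CPIP groups and Sham (1.59% of all genes). With EA, Gfra3 was at 1.05 times its CPIP level (0.906 to 1.22, unadjusted limma p of 0.464).

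Gfra2, the co-receptor for neurturin, did not pass the threshold in any comparison. It had 27.38, 25.63 and 26.03 FPKM in Sham, 22.84, 26.87 and 26.39 in the CPIP group and 24.57, 21.08 and 18.54 in CPIP+EA. CPIP overlapped Sham, whereas all 3 CPIP+EA libraries lay below all Sham libraries, and 1 CPIP+EA library lay within the range of CPIP. Between CPIP and Sham the ratio was 0.962 (95% interval 0.818 to 1.13, unadjusted limma p of 0.595). With EA it was 0.843 against CPIP (0.718 to 0.991), with an unadjusted limma p of 0.0404 and an adjusted p of 0.996, so that the difference did not pass the threshold. It was the only receptor gene with an unadjusted p under 0.05 in this comparison, which 4.29% of all genes reached. Without CPIP+EA replicate 3 the log2 fold change was -0.15 in place of -0.25, with an unadjusted limma p of 0.143, and the unadjusted p was also above 0.05 without any 1 of the 3 Sham libraries, CPIP replicate 2 or 3, or CPIP+EA replicate 2. Against Sham, Gfra2 in CPIP+EA was at a ratio of 0.811 (0.690 to 0.953, unadjusted limma p of 0.0163, adjusted p of 0.27).

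Ret, the tyrosine kinase that all of these co-receptors recruit, had 123.6, 105.44 and 102.39 FPKM in Sham, 113.57, 109.09 and 116.84 in the CPIP group and 120.27, 110.09 and 75.91 in CPIP+EA. The groups overlapped, and CPIP+EA replicate 3 stood below all other libraries. Between CPIP and Sham the ratio was 1.03 (95% interval 0.808 to 1.31), and between CPIP+EA and CPIP it was 0.886 (0.697 to 1.13), with unadjusted limma p of 0.805 and 0.285. Without CPIP+EA replicate 3 the latter log2 fold change was 0.02 in place of -0.17. A difference in Ret was not detectable at this number of libraries.

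**Figure D2:**
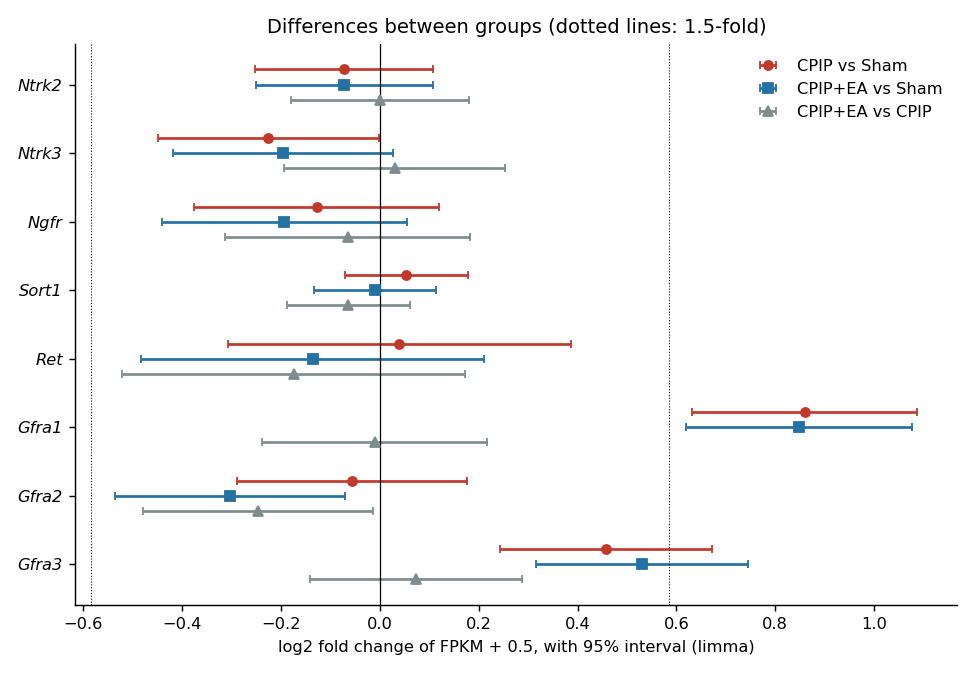
Log2 fold change of each receptor gene (x axis, log2 of FPKM + 0.5) with its 95% interval from limma, for CPIP against Sham (circles), CPIP+EA against Sham (squares) and CPIP+EA against CPIP (triangles). Dotted lines mark a 1.5-fold change; the intervals of Gfra1 against Sham lie beyond it, and all 8 intervals between CPIP+EA and CPIP lie within it.

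Since Gfra1 rose and Ret and Gfra2 did not pass the threshold, the make-up of the co-receptor pool was described for each library. The summed FPKM of Gfra1, Gfra2 and Gfra3 was 97.05, 88.24 and 80.93 in Sham, 128.5, 131.8 and 133.8 in the CPIP group and 135.5, 131.5 and 117.2 in CPIP+EA. Set against Ret, the sum was 80.4 ± 2.85% of the Ret level in Sham, 116 ± 4.07% in the CPIP group and 129 ± 22.4% in CPIP+EA. Co-receptor RNA was thus below Ret in every Sham library and above it in every library of both CPIP groups. The highest value, 154.4%, was that of CPIP+EA replicate 3, in which Ret was lowest.

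Gfra1 made up 53.69, 53.65 and 47.72% of the summed co-receptor FPKM in the Sham libraries, 63.26, 64.24 and 62.72% in the CPIP group and 62.54, 65.88 and 65.65% in CPIP+EA. All 6 libraries of both CPIP groups had a higher share than all Sham libraries. The difference in means was 12.4 percentage points, which follows from the higher Gfra1 level described above. Its exact two-sided permutation p over 84 divisions of the libraries was 0.0238, the smallest they can give, and since no library overlapped it adds no evidence to that level. With EA the mean share was 1.28 percentage points above that in CPIP, with an exact two-sided permutation p of 0.4, where the smallest p that 3 against 3 libraries allow is 0.1, in a test chosen after the values were seen. The share of Gfra2 was 29.8% in Sham, 19.3% in the CPIP group and 16.7% in CPIP+EA, and the share of Gfra3 was 18.5, 17.3 and 18.7%. The ratio of Gfra1 to Gfra2 ran from 1.48 to 1.90 in the Sham libraries, from 3.15 to 3.56 in CPIP and from 3.45 to 4.15 in CPIP+EA.

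**Figure D3:**
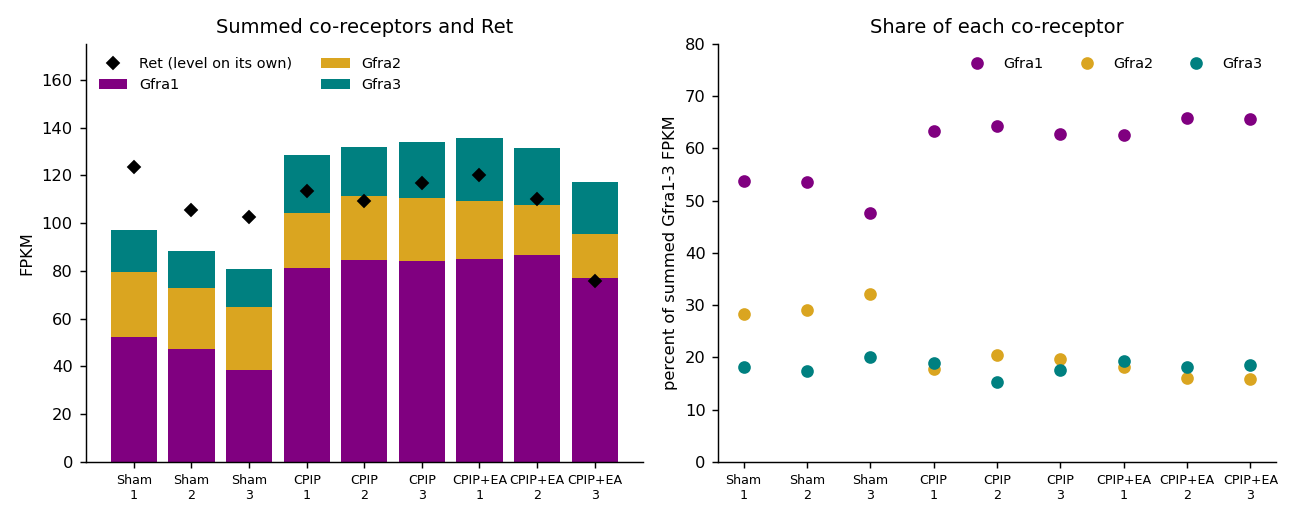
Left, stacked FPKM of Gfra1, Gfra2 and Gfra3 in each of the 9 libraries (bars, y axis from 0), with the FPKM of Ret as a diamond. Right, the percentage of that sum given by each co-receptor, where Gfra1 lies between 47.72 and 53.69% in Sham and between 62.54 and 65.88% in both CPIP groups.

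The promoters of Gfra1 and Ret are shown because the co-receptor was called higher while the kinase it recruits was not. RefSeq sequences of the rat assembly GRCr8 were matched for 4 of the 8 receptor genes, Sort1, Ret, Gfra1 and Gfra3, and the 250 bases before the start of each gene were searched on both strands for an AP-1 site (TGANTCA), a cAMP response element (TGACGTCA), a STAT site (TTCNNNGAA), a GC box (GGGCGG) and a TATA box (TATAAA). The Gfra1 window lies at chr1:267555812-267556061 on the minus strand and the Ret window at chr4:153040557-153040806 on the minus strand. They are printed 5′ to 3′ as the gene is read, with the GC box in capitals.
Gfra1: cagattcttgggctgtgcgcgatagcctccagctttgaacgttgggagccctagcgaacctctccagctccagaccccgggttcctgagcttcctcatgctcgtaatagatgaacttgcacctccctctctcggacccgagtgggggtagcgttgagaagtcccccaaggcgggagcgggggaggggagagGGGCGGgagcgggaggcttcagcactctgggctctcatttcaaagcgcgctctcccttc
Ret: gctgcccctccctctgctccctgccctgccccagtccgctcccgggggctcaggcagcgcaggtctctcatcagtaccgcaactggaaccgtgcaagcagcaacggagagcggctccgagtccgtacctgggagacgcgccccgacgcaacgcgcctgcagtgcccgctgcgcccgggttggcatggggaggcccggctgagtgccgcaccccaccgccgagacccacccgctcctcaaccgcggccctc
The Gfra1 window held 1 GC box, 59 bases before the start, and the Ret window held no match to any of the motifs. Sort1 had 1 GC box and Gfra3 had 3. An AP-1 site, a cAMP response element, a STAT site or a TATA box was found in none of the 4 windows. Over all 33469 promoters of the same length, 30.5% held a GC box, 12.9% a TATA box, 7.67% a STAT site, 6.34% an AP-1 site and 1.59% a cAMP response element. The windows were rich in G and C, at 62.0% for Gfra1, 66.0% for Gfra3, 71.6% for Sort1 and 72.8% for Ret, against a median of 51.2% over all promoters. A match to these letters is a description and not a site of binding, and the absence of a match covers these windows only.

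The receptors for neurotrophins did not pass the threshold in any comparison. Ntrk2 had 48.61, 47.65 and 51.52 FPKM in Sham, 45.14, 50.12 and 45.28 in the CPIP group and 50.8, 48.1 and 41.96 in CPIP+EA. The 3 groups overlapped, with ratios of 0.951 for CPIP against Sham (95% interval 0.840 to 1.08, unadjusted limma p of 0.384) and 1.0 for CPIP+EA against CPIP (0.883 to 1.13, unadjusted limma p of 0.996). The Ntrk2 gene also gives rise to truncated TrkB, which lacks the kinase and is made by glia, and a value per gene does not tell both forms apart.

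Ntrk3, the least abundant of the 8 receptor genes in each group, had 9.66, 9.95 and 11.79 FPKM in Sham, 9.01, 9.49 and 8.08 in the CPIP group and 8.61, 8.75 and 9.8 in CPIP+EA. All CPIP libraries lay below all Sham libraries, although CPIP replicate 2 was close to the lowest Sham library. The ratio was 0.855 for CPIP against Sham (95% interval 0.732 to 0.998), with an unadjusted limma p of 0.0478 and an adjusted p of 0.572. It was 1.02 for CPIP+EA against CPIP (0.875 to 1.19, unadjusted limma p of 0.767). Without Sham replicate 3 the unadjusted limma p between CPIP and Sham was 0.181, and without CPIP replicate 3 it was 0.162. The log2 fold change of Ntrk3 in that comparison, -0.23, ranged from -0.28 to -0.14 over the 22 alternative analyses. Among all genes tested 8.66% had an unadjusted p under 0.05 in this comparison, against 3 of the 8 receptor genes (Ntrk3, Gfra1 and Gfra3), and the libraries of the same 3 genes did not overlap, which held for 15.9% of all genes. Against Sham, CPIP+EA had 3 receptor genes with an unadjusted p under 0.05, Gfra1, Gfra2 and Gfra3 (12.2% of all genes), and the same 3 did not overlap (16.2% of all genes). Both CPIP groups had 3, Ntrk3, Gfra1 and Gfra3 (11.8% of all genes), and 2 that did not overlap, Gfra1 and Gfra3 (7.27% of all genes).

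Ngfr, the most abundant receptor gene, had 188.92, 167.27 and 157.73 FPKM in Sham, 161.87, 154.29 and 152.89 in the CPIP group and 168.51, 156.81 and 126.07 in CPIP+EA. The groups overlapped, and the lowest value was again that of CPIP+EA replicate 3. The ratio was 0.915 for CPIP against Sham (95% interval 0.771 to 1.09, unadjusted limma p of 0.274) and 0.956 for CPIP+EA against CPIP (0.805 to 1.14, unadjusted limma p of 0.566). Between CPIP and Sham the log2 fold change of -0.13 ranged from -0.19 to -0.06 over the 22 alternative analyses. The p75 receptor is found on Schwann cells and satellite glia as well as on sensory neurons, and the cells that gave these values were not separated.

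Sort1 was the steadiest of the 8 receptor genes in CPIP. It had 20.06, 18.39 and 19.33 FPKM in Sham, 19.99, 20.08 and 19.92 in the CPIP group and 19.68, 18.63 and 19.03 in CPIP+EA. All CPIP+EA libraries lay just below all CPIP libraries, while Sham overlapped both groups. The ratio was 1.04 for CPIP against Sham (95% interval 0.952 to 1.13, unadjusted limma p of 0.354) and 0.957 for CPIP+EA against CPIP (0.878 to 1.04, unadjusted limma p of 0.274). Sort1 was the only receptor gene whose libraries did not overlap between CPIP+EA and CPIP, which 8.23% of all genes did not.

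The difference between CPIP+EA and CPIP was bounded for each receptor gene by its own interval. Of the 8 ratios, the lowest was 0.843 for Gfra2 and the highest 1.05 for Gfra3. The lowest bound of any of the 95% intervals was 0.697, for Ret, and the highest was 1.22, for Gfra3, so that a 1.5-fold change in either direction lay outside all 8 intervals, which are not adjusted for the number of genes. This does not show that the levels were equal.

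The genes that act with these receptors were described by lists. Of the 8 neurotrophins and GDNF family ligands, 7 passed the filter and 0 were called in any comparison. Bdnf, the ligand of TrkB, had 6.16, 5.68 and 5.68 FPKM in Sham, 8.25, 8.2 and 9.25 in the CPIP group and 9.46, 9.27 and 7.94 in CPIP+EA. Every library of both CPIP groups lay above all Sham libraries. Its level was 1.43-fold higher in CPIP than in Sham (log2 fold change 0.52, SE 0.09, limma adjusted p of 0.0428) and 1.48-fold higher in CPIP+EA than in Sham (limma adjusted p of 0.018), with 1.03 times the CPIP level in CPIP+EA (unadjusted limma p of 0.603). The other ligands were low. Gdnf was at 0.177 ± 0.0902 FPKM in Sham, 0.0733 ± 0.0404 in the CPIP group and 0.0667 ± 0.0723 in CPIP+EA, and Artn, the ligand of GFRα3, was at 0.603 ± 0.214, 0.427 ± 0.0907 and 0.557 ± 0.137. With EA against CPIP, Artn had the smallest p of the list (log2 fold change 0.19, unadjusted limma p of 0.313).

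Of the 12 further receptors and co-receptors, 11 passed the filter, with 0 called and a median log2 fold change of -0.09 between CPIP and Sham, against -0.0064 over all genes tested. Gfra4, the co-receptor for persephin, was at 0.803 ± 0.085 FPKM in Sham, 0.483 ± 0.12 in the CPIP group and 0.627 ± 0.0839 in CPIP+EA (CPIP against Sham, log2 fold change -0.41, unadjusted limma p of 0.011, adjusted p of 0.324). Sorl1, a sorting receptor related to sortilin, was at 11.3 ± 1.98, 8.23 ± 0.56 and 7.93 ± 1.62 (both CPIP groups against Sham, log2 fold change -0.46, unadjusted limma p of 0.00769, adjusted p of 0.192). Of the 20 adaptors and first signalling steps downstream of the receptors, 20 were tested and 0 were called, with a median of -0.02 between CPIP and Sham. Shc3, a neuronal adaptor of Trk receptors, was at 2.16 ± 0.191, 1.43 ± 0.259 and 1.81 ± 0.354 FPKM (CPIP against Sham, log2 fold change -0.47, limma adjusted p of 0.342). Dok5, an adaptor that binds Ret, was at 5.62 ± 0.644, 5.52 ± 0.368 and 6.98 ± 0.531 (CPIP+EA against CPIP, log2 fold change 0.31, unadjusted limma p of 0.0133, adjusted p of 0.996).

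The list of proteins that bind or cleave p75NTR held 12 symbols, with Bex3 and Ngfrap1 as symbols of the same gene, and 10 genes were found and tested, with 0 called and a median of -0.0073 between CPIP and Sham. Maged1, which binds the intracellular part of p75NTR, was at 91.9 ± 12.4, 116 ± 3.95 and 113 ± 16.3 FPKM (CPIP against Sham, log2 fold change 0.34, limma adjusted p of 0.413). Bex3, another partner of p75NTR, was at 131 ± 7.49, 135 ± 9.49 and 153 ± 17.2 (CPIP+EA against CPIP, log2 fold change 0.18, unadjusted limma p of 0.0827). All 10 feedback regulators of ERK signalling, a pathway that these kinases switch on, were tested, with 0 called and a median of -0.05 between CPIP and Sham. Spry4 was at 5.61 ± 0.633, 4.17 ± 0.676 and 4.28 ± 0.405 FPKM (CPIP against Sham, log2 fold change -0.39, limma adjusted p of 0.381), and Spry1 at 5.62 ± 1.01, 5.47 ± 1.56 and 4.14 ± 0.987 (CPIP+EA against CPIP, log2 fold change -0.35, unadjusted limma p of 0.144). At an unadjusted limma p under 0.05 between CPIP and Sham there were 1 of 7 ligands, 2 of 11 further receptors, 1 of 20 adaptors, 1 of 10 partners of p75NTR and 2 of 10 feedback regulators, against 8.66% of all genes tested. The second feedback regulator was Dusp4, which was named after its values were seen (log2 fold change 0.69).

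**Figure D4:**
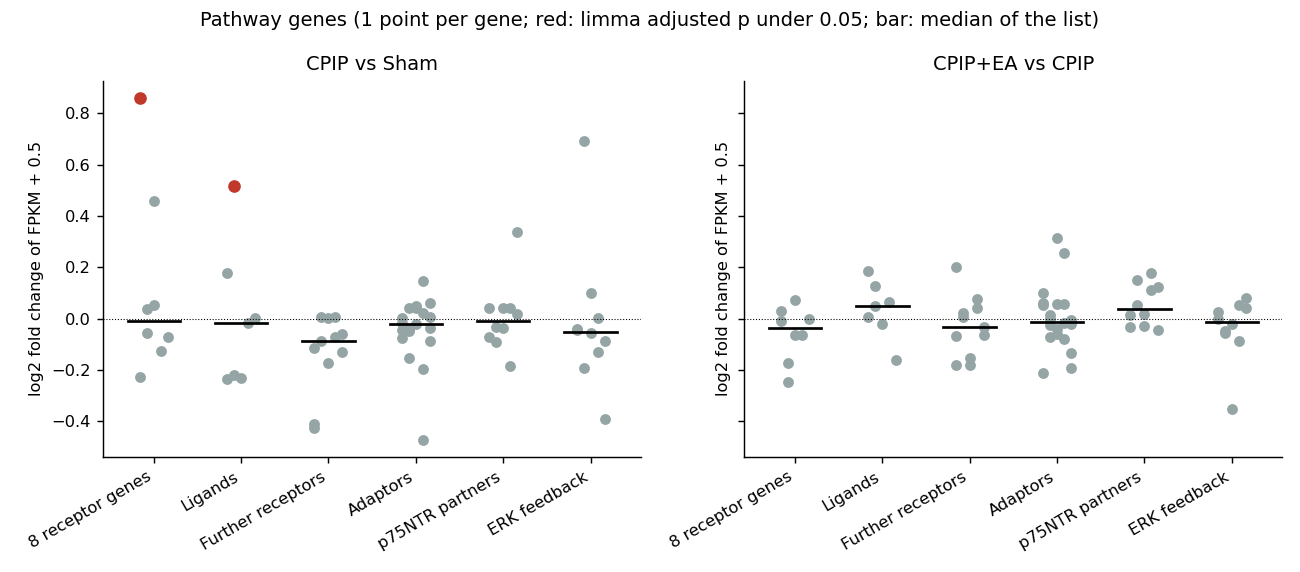
Log2 fold change (y axis, log2 of FPKM + 0.5) of every tested gene of the 8 receptor genes and of each list, for CPIP against Sham on the left and CPIP+EA against CPIP on the right, with the median of each list as a bar. Red points had a limma adjusted p under 0.05, which were Gfra1 and Bdnf on the left and none on the right.

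Markers of the cells in the ganglia were set beside these results. All 10 markers of sensory neurons were found, and their summed FPKM ranged from 7093 to 8294 in Sham, from 7357 to 8161 in the CPIP group and from 7233 to 8768 in CPIP+EA. These sums overlapped and are carried by the most abundant markers, Tubb3 among them. With limma 0 of the 10 were called between CPIP and Sham, where 0.355% of all genes were. An unadjusted p under 0.05, which 8.66% of all genes had, was found for 3, in both directions: Tubb3 (log2 fold change 0.41), Rbfox3 (-0.34) and Snap25 (-0.24). The part of sensory neuron content in the Gfra1 level was not tested. Centring each library on the mean of these 10 markers left the log2 fold change of Gfra1 at 0.86. Since the markers moved in both directions, that centring could shift it little and does not measure the amount of neurons. The 8 markers of axon injury (Atf3, Sprr1a, Gal, Npy, Gap43, Jun, Sox11 and Gadd45a) were chosen with earlier results of these data known. All 8 were called higher in CPIP than in Sham, against 0.355% of all genes called, with a median log2 fold change of 2.32. Their summed FPKM was 191.7 to 196.8 in Sham, 826.9 to 957.4 in the CPIP group and 901.4 to 1011 in CPIP+EA, and 0 of the 8 were called between CPIP+EA and CPIP. Against Sham, this list moved with Gfra1 and Gfra3, and its part in their change was not tested. With EA against CPIP, all 8 had a higher level (median log2 fold change 0.11, against 0.01 over all genes tested), with Gal at 0.48 (unadjusted limma p of 0.0015, adjusted p of 0.969), whereas Gfra1 was at -0.0107.

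Repair Schwann cells also make GFRα1 after nerve injury. Of the 6 markers listed, which include Gdnf and Artn of the ligand list, 5 were tested and 0 were called. Their summed FPKM was 46.0 to 58.1 in Sham, 53.9 to 56.3 in the CPIP group and 54.7 to 63.2 in CPIP+EA. Most of this sum was Cdh2, Shh and Sox2, at 26.5, 14.9 and 9.53 FPKM in Sham, with little from Gdnf and Artn. The 7 markers of Schwann cells summed to between 7333 and 11520 in Sham, 6983 and 12290 in the CPIP group, and 4965 and 9709 in CPIP+EA, with 0 called. Set against CPIP, 6 of these 7 had a lower level with EA (median log2 fold change -0.42, against 0.01 over all genes tested). Prx alone had an unadjusted limma p under 0.05 (0.0368), which 4.29% of all genes tested had in either direction. No marker of either list was at 0 in all libraries. CPIP+EA replicate 3 held the lowest Ngfr, Ret, Gfra2 and Ntrk2 of all libraries. In it the 5 markers of nonpeptidergic nociceptors summed to 153.5 FPKM, of which P2rx3 gave 113.9, against 181.9 to 228.2 in the other libraries. The markers of C-fiber low-threshold mechanoreceptors also had their lowest sum there (40.83, against 46.88 to 55.85 in the others). The sums for peptidergic nociceptors (917.3) and large-fiber neurons (2213) in that library lay within the range of the others. The 7 markers of neutrophils summed to 591.7 in that library, against 31.8 to 237.2 in the others, and the 5 erythroid markers to 2383, against 249.8 to 1446. The part of these cells in its receptor levels was not tested.

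Across the 9 libraries, the Pearson correlation of log2(FPKM + 0.5) was 0.90 between Gfra1 and Gfra3 and 0.87 between Ngfr and Ret, whereas it was -0.83 between Ntrk3 and Gfra1. It was 0.04 between Gfra1 and Ret. The points share their libraries and include the difference between the groups, and the values are a description. The genes most like each receptor gene were taken as the 3 with the highest correlation with it among tested genes whose mean FPKM reached 1. For Gfra1 these were Sema6a, a transmembrane semaphorin (r of 0.98), Vgf, a secreted neuropeptide precursor (0.98), and Npy, neuropeptide Y (0.98). Sema6a had 5.94 ± 0.881 FPKM in Sham, 15.3 ± 0.793 in the CPIP group and 16.1 ± 2.37 in CPIP+EA, and Vgf had 13.6 ± 2.17, 35.2 ± 4.48 and 35.0 ± 5.84. The log2 differences of Sema6a, Vgf and Npy between both CPIP groups and Sham were 1.33, 1.34 and 6.67, a pattern that their choice by likeness to Gfra1 had set.

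For Gfra3 the most similar genes were Peli3 (r of 0.99), a ubiquitin ligase of the Pellino family, Txnrd1 (0.97), cytosolic thioredoxin reductase, and Fam150b (0.97). Peli3 had 6.74 ± 0.764 FPKM in Sham, 10.9 ± 1.0 in the CPIP group and 11.4 ± 1.55 in CPIP+EA, and Txnrd1 had 30.4 ± 0.539, 37.7 ± 1.32 and 37.6 ± 2.32. For Gfra2 they were Jade2, Thsd4 and Zfp609 (0.98 each), and Thsd4 had 13.0 ± 1.12, 12.6 ± 1.01 and 10.4 ± 1.99 FPKM. For Ret they were Dctn1 (0.98), Mapt (0.97) and Frmpd3 (0.97). Dctn1, a dynactin subunit, had 101 ± 8.59, 105 ± 2.70 and 96.4 ± 17.6 FPKM, and Mapt encodes the microtubule protein tau.

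Among the receptors for neurotrophins, the genes most like Ngfr were Lrrn2 (r of 0.98), Rcan2 (0.97) and RGD1304884 (0.97), and Rcan2 had 65.8 ± 4.30, 62.3 ± 1.47 and 60.9 ± 5.82 FPKM in Sham, CPIP and CPIP+EA. Those most like Ntrk2 were Kirrel3 (0.94), Mrgprd (0.92) and Chd8 (0.92). Mrgprd, a receptor of nonpeptidergic nociceptors, had 12.8 ± 2.31, 10.9 ± 1.74 and 10.1 ± 3.52 FPKM. Those most like Ntrk3 were Med6 (0.97), Msl1 (0.91) and Sdccag3 (0.91), and those most like Sort1 were LOC100912585 (0.95), Ythdf3 (0.94) and Dsel (0.94).

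**Figure D5:**
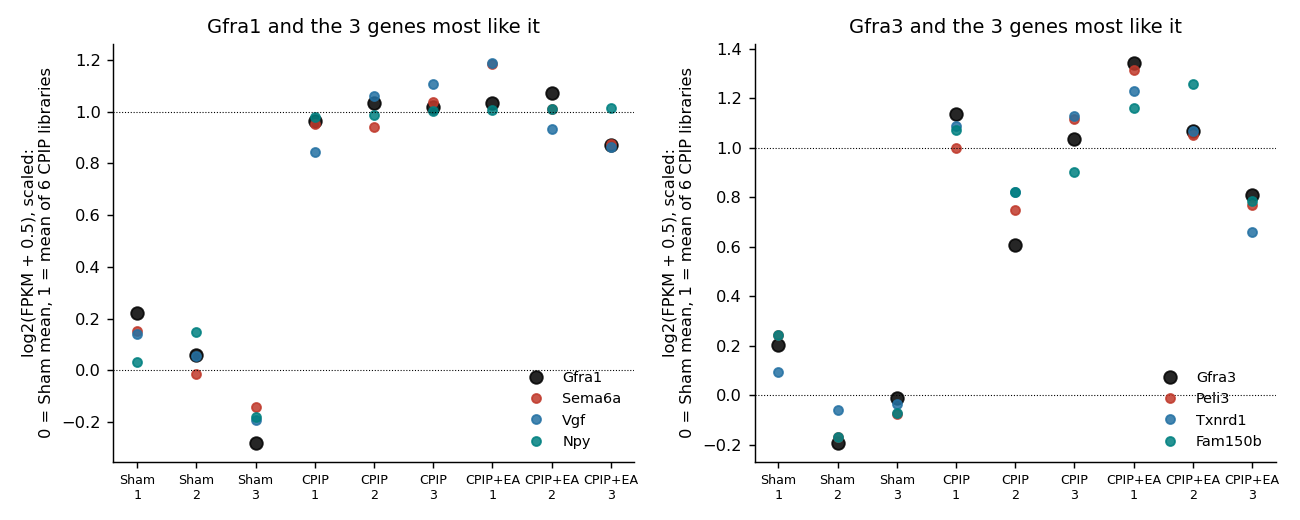
Gfra1 (left) and Gfra3 (right) with the 3 genes of highest correlation in each of the 9 libraries. The y axis is log2(FPKM + 0.5) scaled for each gene so that 0 is its Sham mean and 1 the mean of its 6 CPIP and CPIP+EA libraries, so that the size of the change, between 0.85 and 6.67 on the log2 scale for Gfra1 and its 3 genes, is not shown.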

How the data were processed

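RNA-Seq data of 9 libraries were analysed, 3 each for Sham, CPIP and CPIP+EA, with groups and replicate numbers taken from the sample labels. The authors filtered the reads and deposited 1 FPKM value per gene and library, with 2 decimals. The aligner, genome build and annotation were not given in the sources used here. The deposited table also holds the authors' log2 ratios with a P-value and a Q-value for each pair of groups, none of which was used. FPKM carries no read counts, so precision is limited by the number of libraries. The summed FPKM ranged from 445647 to 482940 per library, and 18279 to 18456 genes were above 0.

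Values were tested as log2(FPKM + 0.5), a scale that understates the change of genes of low FPKM, with limma 3.58.1 in R 4.3.3 (eBayes with a trend, all 9 libraries in 1 fit, no covariate), for the 17187 genes whose mean FPKM reached 0.1. Two-sided p-values were adjusted over all of these by the Benjamini-Hochberg method. The libraries came from 3 rats per group, and p-values measure the spread between them. The 8 receptor genes, the lists and the comparisons were chosen with earlier results of these data known. Named genes were the 8 receptor genes, the genes called or of smallest p in each pathway list and the 3 genes most correlated with each receptor gene. Gdnf, Dusp4 and single genes of the marker lists were named besides, after their values were seen. The alternatives were other pseudocounts, filters, scalings and thresholds, no trend or a robust one, a block for the replicate number, only the groups compared, and each library left out in turn. Tables and figures were made with Python 3.11.15, numpy 2.4.6, pandas 2.3.3, scipy 1.17.1 and matplotlib 3.10.9.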

Additional observations from a re-analysis of the deposited data

How the results depend on the processing

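Gfra1 kept its direction against Sham in every alternative. Its log2 fold change lay between 0.74 and 0.95 for CPIP against Sham (called in 12 of 22 alternatives, limma adjusted p of 0.00172 to 0.0318) and between 0.73 and 0.94 for CPIP+EA against Sham (14 of 22, 0.00195 to 0.0267). It lay between 0.73 and 0.95 for both CPIP groups against Sham (20 of 21, 0.000521 to 0.0102). The number of receptor genes called between CPIP and Sham was 0 on the TPM scale, without the trend, with the replicate number as a block and with only the 2 groups compared, and 0 to 1 with each library left out. Between CPIP+EA and Sham it was 0 on the TPM scale, with the block and with only the 2 groups compared, 2 at an adjusted p under 0.05 without a fold minimum, and 0 to 1 with each library left out. For both CPIP groups it was 2 at an adjusted p under 0.05 without a fold minimum and 0 to 1 with each library left out, 0 being without Sham replicate 2. At an unadjusted p under 0.05 between CPIP+EA and CPIP, Gfra2 was lost on the TPM scale, without the trend, with the block and with only the 2 groups compared (0 each), with 0 to 1 on leaving out each library. Gfra3 kept its direction against Sham throughout.

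Over all genes, the number called between CPIP and Sham was 61, with 26 under the block, 102 and 122 at an adjusted p under 0.05 with and without the fold minimum, and 30 to 62 with each library left out. Between CPIP+EA and Sham it was 83, with 42, 163 and 226 in that order, 51 with only the 2 groups compared and 35 to 82 with each library left out. For both CPIP groups it was 103, with 63, 166 and 274, and 55 to 107 with each library left out. Between CPIP+EA and CPIP it was 1 with only the 2 groups compared and 0 to 2 with each library left out. Replicate numbers did not pair the libraries, since the correlation of the deviations of same-numbered libraries ran from -0.24 to 0.30, and the loss of a call under the block is not read as a weaker effect.

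Small differences turned their sign, and no called value did. Ntrk2 between CPIP+EA and CPIP was -0.0205 with quantile normalization, -0.019 on the TPM scale and -0.0072 when centred on sensory neuron genes. With each library left out, the log2 fold changes that turned ran between CPIP and Sham from -0.10 to 0.0156 for Gfra2 and -0.0131 to 0.12 for Ret. They ran between CPIP+EA and CPIP from -0.0444 to 0.0407 for Gfra1, -0.0063 to 0.14 for Gfra3, -0.15 to 0.0564 for Ngfr, -0.058 to 0.0784 for Ntrk2, -0.0311 to 0.0786 for Ntrk3 and -0.31 to 0.0245 for Ret. They ran between CPIP+EA and Sham from -0.13 to 0.0058 for Ntrk2, -0.27 to 0.0635 for Ret and -0.0423 to 0.0188 for Sort1. They ran between both CPIP groups and Sham from -0.11 to 0.0512 for Ret and -0.0103 to 0.0508 for Sort1. Scaling moved the median of all genes by less than 0.1. The causes of these changes were not tested. The lack of read counts leaves counting error unknown. The 95% interval of Ret between CPIP and Sham ran from 0.808 to 1.31, and changes within it could not be resolved with 3 libraries per group.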

Other observations

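The lists of other cells and neuron classes were counted beside the receptor genes. Between CPIP and Sham, 0 genes were called with limma among the 5 tested markers of peptidergic nociceptors, 5 of nonpeptidergic nociceptors, 4 of C-fiber low-threshold mechanoreceptors and 7 of large-fiber neurons, with median log2 fold changes of -0.09, -0.10, -0.15 and -0.0054. At an unadjusted limma p under 0.05, which 8.66% of all genes tested had in either direction, 3 of these genes were found, Tac1, Th and Zfp521, all with a lower level in CPIP and named after their values were seen.

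Satellite glia markers summed to 3639 to 3766 FPKM in Sham, 3806 to 4147 in the CPIP group and 4047 to 4228 in CPIP+EA, with 0 of 6 called. Most of this sum was Apoe, at 3471 ± 52.5, 3733 ± 183 and 3875 ± 114 FPKM, whereas Fabp7 and Kcnj10 had log2 fold changes of -0.45 and -0.24 between CPIP and Sham (unadjusted limma p of 0.0913 and 0.0627), and the median of the list was 0.04. With EA against CPIP, Fabp7 was at 0.71 and Glul at -0.21 (unadjusted limma p of 0.0148 and 0.0199, adjusted p of 0.996 for each). Macrophage markers summed to 78.7 to 97.7, 89.9 to 110 and 85.1 to 154, with 0 of 7 called. The 6 markers of meningeal and perineurial fibroblasts summed to 957 to 1274 in Sham, 813 to 1086 in the CPIP group and 540 to 1083 in CPIP+EA. Set against CPIP, all 6 had a lower level with EA (median log2 fold change -0.29), and 0 were called with limma. Against Sham, the median in CPIP+EA was -0.58, 0 were called with limma, and 4 of the 6, Col1a1, Col3a1, Pdgfra and Lum, were lower at an unadjusted p under 0.05, which 12.2% of all genes tested had in either direction. Markers of skeletal muscle, which lies outside the ganglia, summed to 125.8 FPKM in CPIP replicate 2. They summed to 27.78 and 8.0 in CPIP replicates 1 and 3 and to no more than 39.0 in the other groups. Their part in the receptor levels was not tested.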
